A study of Mus musculus with 10 samples.

Results

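The immediate early response genes are 34 genes, chosen by name with earlier results of these data known. Most are known for transcripts that rise within minutes to hours of a stimulus without new protein synthesis. All 34 were among the 54532 genes of the deposited gene table, and all 34 also passed the filter on low counts that left 17752 genes for testing. They were described in RNA sequenced from the part of the mouse left atrium around the pulmonary veins, in 4 control (Ctrl) and 6 Tbx5-deleted (CKO) animals, and, from the authors' own fold changes, in the left atrial appendage. Tbx5 encodes a T-box transcription factor of atrial development and rhythm. Ctrl animals were R26creERT2/creERT2; Tbx5+/+ and CKO animals R26creERT2/creERT2; Tbx5flox/flox. Both groups thus carried the tamoxifen-inducible Cre recombinase on both Rosa26 alleles, a locus that is active in nearly all cell types, so that the deletion was not limited to heart muscle. All animals received tamoxifen on 3 days at 6 weeks of age and were 7 weeks old when the tissue was taken 1 week later, after death by carbon dioxide and cervical dislocation. The appendage and most of the vein length were cut away, and the time from death to RNA extraction is not given in the sources used here.

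Immediate early genes are switched on by factors that already sit in the cell. Growth factor, stretch, calcium and stress signals reach them through kinases of the MAP kinase and cyclic AMP pathways, which act on serum response factor at CArG boxes and on CREB and ATF proteins at cyclic AMP response elements. Many of the products are transcription factors, such as the Fos and Jun proteins that pair to form AP-1 and the zinc finger proteins of the Egr and Klf families. Others end the response, by removing phosphate from the kinases, by blocking cytokine receptors or by speeding the decay of short-lived transcripts. In heart tissue these genes are known to respond to stretch, hormones and injury, and also to the handling of tissue.

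Summed gene counts were 8602794 to 10040808 per library, and fold changes are CKO over Ctrl on the log2 scale with their standard error (SE). Levels are read counts scaled to a common library size (CPM) with TMM, a scaling that evens out differences in library composition. Exon 3 of Tbx5, divided by the library's median Tbx5 exon, lay at 0.903 to 1.70 in Ctrl and 0.175 to 0.618 in CKO, so this ratio separated the libraries as labelled. Over the whole gene Tbx5 stood at 89.6 to 158.5 CPM in Ctrl and 167 to 425 CPM in CKO, higher in every CKO library (log2 fold change 1.00, SE 0.29, adjusted p = 0.101). Scaled to library size in place of the other exons, exon 3 coverage overlapped between the groups (1.36 to 3.84 mean reads per base at a common library size in Ctrl, 0.251 to 3.04 in CKO), so the check rests on the ratio. Xist, the RNA of the inactive X chromosome, exceeded 100 CPM in 5 libraries (Ctrl 1, Ctrl 2, CKO 1, CKO 2, CKO 3) and was lower in the other 5. Airway lining transcripts were abundant in Ctrl 3 and CKO 4, with summed marker levels of 3909 and 6517 CPM. Ctrl 1 followed at 225 CPM, and the remaining libraries lay at 0.42 to 34.3 CPM. The cardiomyocyte markers summed to 34460 to 42640 CPM in Ctrl and 28580 to 43680 CPM in CKO, so the defining markers of the labelled tissue were present.

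Around the pulmonary veins 5 of the 34 genes rose in CKO and 0 fell. The 5 were Atf3, Ier3, Ier5, Klf6 and Plk2, by edgeR's quasi-likelihood test at an adjusted p under 0.05. Of all 17752 genes tested, 1.54% rose and 1.26% fell by the same rule. At an unadjusted p under 0.05, 15 members were higher and 0 lower, beside 8.86% of all genes higher. DESeq2 called 8 members higher and 0 lower, beside 681 (2.05%) of the 33196 genes with any count called higher. That base includes genes too scarce for the filter used with edgeR, which all members passed, so its share is not like the others. The fold change was above 0 for 30 of the 34 (88.2%), against 46.6% of all tested genes, and its median was 0.47 against -0.03 over all tested genes. In 7 members every CKO library exceeded every Ctrl library, which holds for 3.03% of all genes: Atf3, Maff, Klf6, Ier3, Ier5, Btg2 and Plk2. The list was chosen with earlier results of these data known, so its shares beside all genes are a description and were not tested. The number called depended on single controls. It was 1 (Plk2) without Ctrl 2, beside 0.479% of all genes, 2 (Ier3 and Plk2) without Ctrl 1, beside 0.568%, and 4 to 6 without any of the other 8 libraries.

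**Figure D1:**
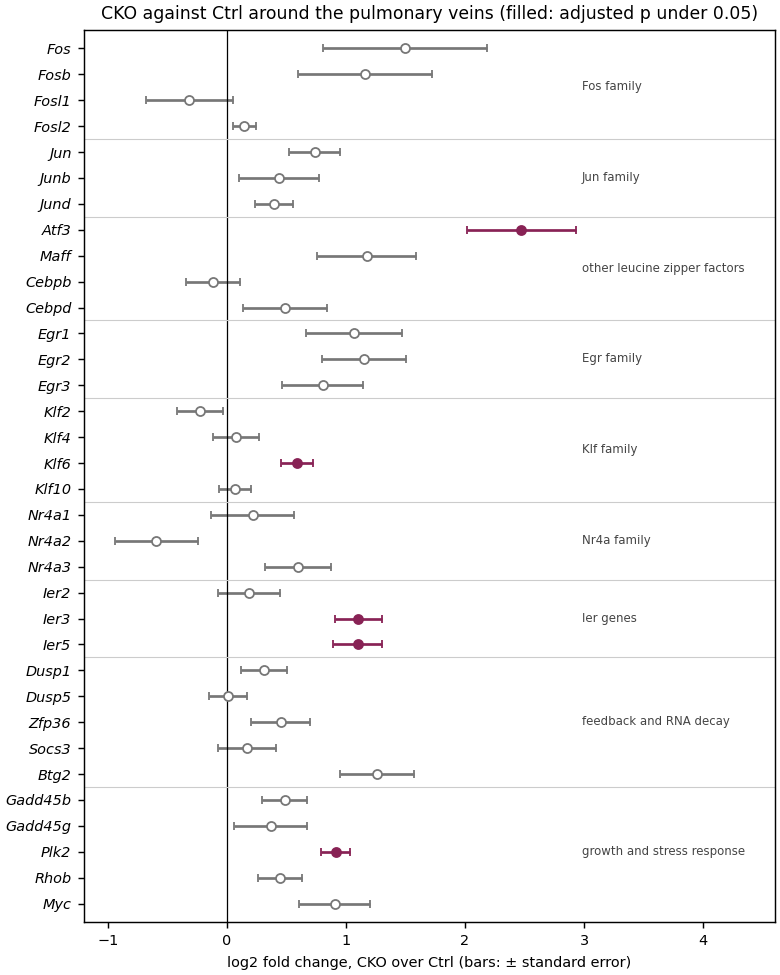
Fold change (log2, CKO over Ctrl) of the 34 genes, grouped by role, with bars for ± standard error. Filled points mark the 5 genes past an adjusted p of 0.05 (Atf3, Klf6, Ier3, Ier5, Plk2), and 30 of the 34 points lie above 0.

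Sequences upstream of the members are shown because the signals named above act there. RefSeq windows of 250 bases before a transcript start (GRCm38.p6) were matched for 27 of the 34 members and searched on both strands. All motifs searched, here and in the next paragraph, were chosen with earlier results of these data known. Egr1, Egr3, Ier2, Myc, Fosl1, Cebpd and Klf10 had no window and were not searched. The Jund window belongs to a start 1210 bases from the nearest annotated Jund start in the transcript files. The cyclic AMP response element TGACGTCA was found in 4 of the 27 (Maff, Dusp1, Btg2 and Plk2), against 1.77% of all gene symbols. Allowing any second base, TNACGTCA, which includes the first motif and was chosen after the results were known, added Atf3 and Dusp5 and made 6 of 27, against 2.92%. Of those 6, Atf3, Btg2, Maff and Plk2 did not overlap between genotypes, beside 3.03% of all tested genes, while Dusp1 and Dusp5 did. Klf6, Ier3 and Ier5 also did not overlap, and their windows held no TNACGTCA. TNACGTCA was chosen with those values known, so a link between motif and genotype was not tested. Its stretches in Dusp1 and Dusp5 are not shown. In the stretches that follow, read 5′ to 3′ on the gene's strand, capitals mark the motif. The Plk2 and Btg2 stretches lie between annotated transcripts and that of Maff in an intron of another Maff transcript. Only a short piece is given for Atf3, because another Atf3 transcript has an exon there.
Plk2, chr13:110394952-110395019, plus strand, motif 62 bases before the start: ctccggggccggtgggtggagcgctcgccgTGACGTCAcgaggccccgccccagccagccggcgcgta
Btg2, chr1:134079284-134079351, minus strand, motif 166 bases before the start: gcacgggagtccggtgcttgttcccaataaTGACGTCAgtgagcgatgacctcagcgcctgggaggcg
Maff, chr15:79347461-79347519, plus strand, motif 29 bases before the start: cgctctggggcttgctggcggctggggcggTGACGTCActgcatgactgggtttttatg
Atf3, chr1:191183334-191183354, minus strand, motif 10 bases before the start: tattaatagcaTTACGTCAgc

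The CArG box, where serum response factor binds, was found in 3 of the 27 matched members (Egr2, Dusp5 and Zfp36), against 1.62% of all symbols. Egr2 held 2 such boxes, in the windows of different transcript starts, of which 1 is shown, and Dusp5 held 2 side by side. The AP-1 motif TGANTCA was found in 0 of 27 (7.82% of all symbols) and the T-box motif AGGTGTGA in 0 of 27 (1.3%). A match describes letters only, and no match says only that these letters are not in this window. The Egr2 stretch is intronic to another Egr2 transcript, and the other pieces are kept short because annotated exons overlap them.
Egr2, chr10:67537767-67537836, plus strand: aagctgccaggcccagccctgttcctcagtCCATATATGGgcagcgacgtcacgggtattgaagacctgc
Dusp5, chr19:53529053-53529082, plus strand: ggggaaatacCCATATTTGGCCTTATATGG
Zfp36, chr7:28379267-28379296, minus strand: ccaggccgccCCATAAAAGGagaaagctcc

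Of the leucine zipper factors outside the Fos and Jun families, Atf3 rose and was the member with the largest fold change. Atf3 (ENSMUSG00000026628), a stress-induced member of the ATF/CREB family that mostly represses its targets, stood at 16.3, 8.41, 26.9 and 29.6 CPM in Ctrl 1 to 4. In CKO it ranged from 44.8 to 193 CPM with a median of 116. All 6 CKO libraries were above the highest Ctrl library. The means were 20.3 ± 9.78 CPM (SD, n = 4) and 113 ± 53.9 CPM (SD, n = 6), a 5.55-fold difference (log2 fold change 2.47, SE 0.46, adjusted p = 0.0166). The call ended without Ctrl 1 (adjusted p = 0.0687) or without Ctrl 2 (adjusted p = 0.0532), while the log2 fold change stayed at 2.38 and 2.23. Atf3 was also among the members with the highest length-corrected level in CKO, at 107 TPM (a level corrected for transcript length), against 21.1 TPM in Ctrl.

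Maff, a small Maf protein that lacks an activation domain and pairs with other leucine zipper factors, was at 1.48, 6.88, 10.9 and 9.74 CPM in Ctrl. Its CKO values were 11.9 to 23.8 CPM (median 15.7), so the groups did not overlap. The wide spread in Ctrl left an SE of 0.42 beside a log2 fold change of 1.18, and Maff did not pass the threshold (adjusted p = 0.181). Cebpb and Cebpd encode C/EBP factors of acute inflammatory responses. Cebpb stood at 11.9, 8.30, 13.6 and 8.20 CPM in Ctrl and 6.44 to 12.6 CPM (median 9.62) in CKO, with full overlap (log2 fold change -0.12, SE 0.22). Cebpd was at 15.9 to 49.97 CPM in Ctrl and 26.3 to 71.2 CPM in CKO (log2 fold change 0.49, SE 0.35, adjusted p = 0.509).

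**Figure D2:**
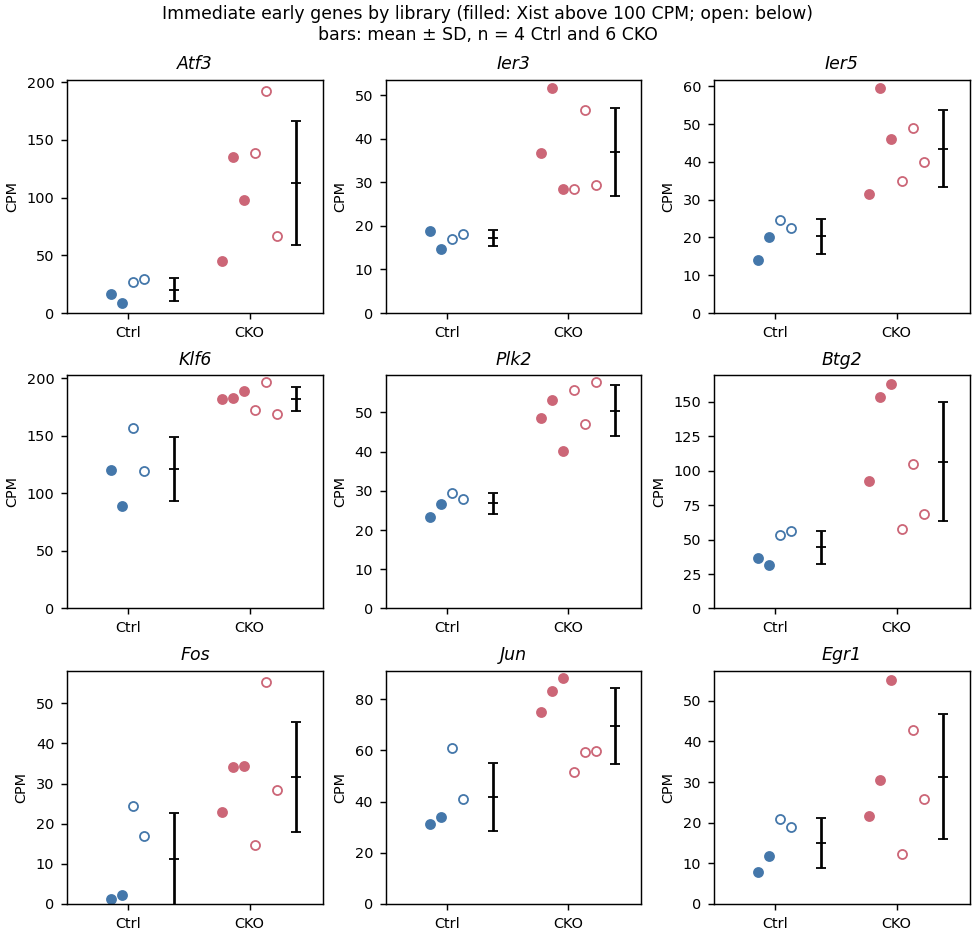
CPM (vertical axes, from 0) of 9 immediate early genes in each library, with filled points for libraries with Xist above 100 CPM, open points for those below, and the mean ± SD of the 4 Ctrl and 6 CKO libraries beside them. Groups are apart for Atf3, Ier3, Ier5, Klf6, Plk2 and Btg2, and overlap for Fos, Jun and Egr1, whose lowest values are Ctrl libraries with Xist above 100 CPM.

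The Fos family had 0 of 4 members past the threshold, and Fos varied more among the controls than any other of the 34 genes (SD of log2 CPM 1.93). Fos, the founding member of AP-1, was at 1.16, 2.29, 24.3 and 17.1 CPM in Ctrl 1 to 4 and at 14.7 to 55.3 CPM (median 31.2) in CKO. Ctrl 3 and 4 thus lay within the CKO range and Ctrl 1 and 2 far below it. The log2 fold change of Fos was 1.497 with an SE of 0.69 (adjusted p = 0.3005). Fosb ranged from 0.656 to 6.66 CPM in Ctrl and 3.02 to 11.5 CPM in CKO (log2 fold change 1.16, SE 0.56). Fosl2, the most evenly expressed member of the family, stood at 68.9, 55.6, 59.9 and 67.7 CPM in Ctrl and 62.9 to 80.8 CPM (median 68.6) in CKO, a log2 fold change of 0.15 (SE 0.10). Fosl1 was scarce, at 0.777 to 2.33 CPM in Ctrl and 0.764 to 1.98 CPM in CKO (log2 fold change -0.32, SE 0.37).

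All 3 Jun genes had fold changes above 0, and 0 of 3 passed the threshold. Jun, the main partner of Fos, was at 31.1, 34.1, 60.7 and 41.0 CPM in Ctrl and at 51.7 to 88.1 CPM (median 67.3) in CKO. Ctrl 3 alone lay within the CKO range. The log2 fold change was 0.74 (SE 0.21, adjusted p = 0.102), and without Ctrl 3 it was 0.99 and passed (adjusted p = 0.0239). Jund, a Jun protein made at steady levels in most cells, was at 20.6, 24.0, 32.7 and 24.8 CPM in Ctrl and 25.3 to 39.0 CPM (median 34.5) in CKO. Its log2 fold change was 0.40 (SE 0.16, adjusted p = 0.239) and the groups overlapped through Ctrl 3. Junb ranged from 13.8 to 41.0 CPM in Ctrl and 27.1 to 58.9 CPM in CKO (log2 fold change 0.44, SE 0.33). Genes on the opposite strand overlap Jun (Junos), Junb (Prdx2), Jund (Gm11175), Fosl1 (Ccdc85b), Cebpb (Tmem189) and Cebpd (Spidr). The kit in the labels does not mark strand although strand was set in the counting, so reads of such pairs cannot be told apart.

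The Egr genes, zinc finger activators that bind GC-rich promoters, had 0 of 3 members past the threshold. All 3 were higher at an unadjusted p under 0.05, beside 8.86% of all tested genes. Egr1 was at 7.82, 11.9, 21.0 and 19.1 CPM in Ctrl and 12.2 to 55.0 CPM (median 28.2) in CKO. CKO 4 alone lay within the Ctrl range, and the log2 fold change was 1.07 (SE 0.40, adjusted p = 0.212). Egr2 stood at 2.43, 2.95, 2.55 and 5.21 CPM in Ctrl and 3.16 to 11.02 CPM (median 7.67) in CKO. Of the 6 CKO libraries 5 exceeded every Ctrl library, CKO 6 did not, and the log2 fold change was 1.15 (SE 0.35, adjusted p = 0.119). DESeq2 called Egr2 (adjusted p = 0.0286), beside 2.05% of the genes with any count called higher. Egr3 was at 1.48, 1.75, 1.89 and 4.10 CPM in Ctrl and 2.73 to 5.93 CPM (median 3.79) in CKO, with Ctrl 4 inside the CKO range (log2 fold change 0.80, SE 0.34, adjusted p = 0.261).

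In the Klf family, zinc finger factors of growth arrest and vessel biology, Klf6 rose and the other 3 members had log2 fold changes between -0.23 and 0.08. Klf6 (ENSMUSG00000000078), an injury-induced factor, was at 120.2, 88.9, 157 and 119 CPM in Ctrl and 169 to 197 CPM (median 183) in CKO. The groups were separate, with the nearest values in Ctrl 3 and CKO 6. Klf6 means were 121 ± 27.9 CPM (SD, n = 4) and 182 ± 10.4 CPM (SD, n = 6), a log2 fold change of 0.59 (SE 0.14, adjusted p = 0.0454). This call was lost without any 1 of 9 of the 10 libraries (adjusted p of 0.0600 to 0.133) and kept without Ctrl 3 (adjusted p = 0.0109). Klf4 was at 46.3, 41.0, 71.1 and 46.4 CPM in Ctrl and 40.0 to 67.9 CPM (median 56.4) in CKO, and Ctrl 3 was above every CKO library. Klf2, a flow-responsive factor of endothelium, ranged from 30.9 to 45.0 CPM in Ctrl and 18.7 to 37.9 CPM in CKO. Klf10, a factor induced by transforming growth factor beta, ranged from 42.5 to 64.2 CPM in Ctrl and 45.1 to 64.1 CPM in CKO.

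The Nr4a genes, orphan nuclear receptors induced by cyclic AMP and calcium, had 0 of 3 members past the threshold and no common direction. Nr4a1 was at 31.4, 14.6, 25.1 and 45.4 CPM in Ctrl and 17.1 to 58.9 CPM (median 32.7) in CKO, with the groups mixed (log2 fold change 0.22, SE 0.35). Nr4a3 ranged from 12.1 to 30.6 CPM in Ctrl and 15.3 to 33.7 CPM in CKO (log2 fold change 0.60, SE 0.28, adjusted p = 0.309). Nr4a2 had the lowest fold change of the list, with 1.97 to 7.08 CPM in Ctrl and 1.68 to 3.71 CPM in CKO (log2 fold change -0.59, SE 0.35, adjusted p = 0.422).

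Of the 3 Ier genes, named for their immediate early response, Ier3 and Ier5 rose about equally. Ier3 (ENSMUSG00000003541), a regulator of cell survival and of signalling through the kinase ERK, was at 18.9, 14.8, 16.9 and 18.1 CPM in Ctrl and 28.4 to 51.7 CPM (median 33.0) in CKO. Every CKO library was well above the tight Ctrl values. Ier3 had a log2 fold change of 1.10 (SE 0.20, adjusted p = 0.0146), from 17.1 ± 1.80 CPM (SD, n = 4) to 36.9 ± 10.1 CPM (SD, n = 6). Ier5 (ENSMUSG00000056708), a regulator of the heat shock response, was at 13.9, 19.99, 24.7 and 22.6 CPM in Ctrl and 31.6 to 59.4 CPM (median 43.0) in CKO. Again the groups did not overlap. The log2 fold change of Ier5 was 1.10 (SE 0.21, adjusted p = 0.0172), from 20.3 ± 4.64 CPM (SD, n = 4) to 43.5 ± 10.2 CPM (SD, n = 6). Without Ctrl 2 the adjusted p was 0.0622 for Ier3 and 0.0667 for Ier5, and without Ctrl 1 it was 0.0530 for Ier5. Ier2, a nuclear protein of the same name group, was at 7.71, 7.32, 15.2 and 10.9 CPM in Ctrl and 7.38 to 16.8 CPM (median 11.8) in CKO, with no separation (log2 fold change 0.18, SE 0.26).

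Of the 5 genes that limit signalling or shorten the life of transcripts, 0 passed the threshold and all 5 had fold changes above 0 (0.01 to 1.26). Btg2, an antiproliferative protein that recruits the CCR4-NOT deadenylase to transcripts, was at 36.7, 31.8, 53.2 and 55.9 CPM in Ctrl and 57.3 to 163 CPM (median 98.7) in CKO. The groups did not overlap, but CKO 4, the lowest, lay just above Ctrl 4. The log2 fold change was 1.26 (SE 0.31) and the adjusted p 0.0580, which became 0.0272 without CKO 4, while DESeq2 gave 0.00107. Zfp36, whose protein (tristetraprolin) binds AU-rich elements and speeds decay, was at 23.5, 16.1, 30.8 and 27.8 CPM in Ctrl and 19.2 to 46.7 CPM (median 34.3) in CKO. CKO 6 lay below Ctrl 1 and the groups were mixed (log2 fold change 0.45, SE 0.25, adjusted p = 0.388). Dusp1, a phosphatase of the p38 and JNK kinases and the most abundant gene of this group by mean TPM after Btg2, ranged from 33.1 to 51.0 CPM in Ctrl and 32.3 to 69.0 CPM in CKO (log2 fold change 0.31, SE 0.19). The ERK phosphatase gene Dusp5 ranged from 8.88 to 13.3 CPM in Ctrl and 8.14 to 11.3 CPM in CKO (log2 fold change 0.01, SE 0.16). Socs3, which blocks cytokine receptors that signal through JAK kinases, ranged from 10.6 to 20.7 CPM in Ctrl and 12.2 to 27.3 CPM in CKO (log2 fold change 0.17, SE 0.25).

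Plk2 rose, and it was the member whose call held when any 1 of the 10 libraries was left out (adjusted p of 0.0016 to 0.0149). Plk2 (ENSMUSG00000021701), a polo-like kinase that responds to stress and cell activity, was at 23.2, 26.6, 29.5 and 27.9 CPM in Ctrl and 40.2 to 57.7 CPM (median 51.0) in CKO. Both groups were tight and they did not overlap. Plk2 means were 26.8 ± 2.67 CPM (SD, n = 4) and 50.5 ± 6.44 CPM (SD, n = 6), a 1.88-fold difference (log2 fold change 0.91, SE 0.12, adjusted p = 0.00252). Myc, a driver of growth and ribosome production, was at 3.70, 2.40, 6.44 and 4.98 CPM in Ctrl and 5.42 to 12.0 CPM (median 8.13) in CKO, overlapping through Ctrl 3 (log2 fold change 0.90, SE 0.30, adjusted p = 0.156). Rhob, a small GTPase of the actin skeleton with the highest mean TPM of the 34 genes (114 TPM over all libraries), was at 113, 93.6, 155 and 97.7 CPM in Ctrl and 109.9 to 183 CPM (median 167) in CKO. Ctrl 1 and 3 lay within the CKO range (log2 fold change 0.44, SE 0.18, adjusted p = 0.249).

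Gadd45b and Gadd45g encode stress sensors that bind cell cycle and MAP kinase proteins. Gadd45b was at 6.34, 7.32, 7.00 and 5.98 CPM in Ctrl and 6.83 to 12.1 CPM (median 9.23) in CKO, where CKO 1 alone lay within the Ctrl range (log2 fold change 0.49, SE 0.19, adjusted p = 0.223). Gadd45g was at 19.0, 13.3, 22.2 and 20.3 CPM in Ctrl and 12.7 to 37.2 CPM (median 21.0) in CKO, with CKO 6 below every Ctrl library (log2 fold change 0.37, SE 0.31). For every gene above, fewer or more cells of a type and less or more RNA per cell cannot be told apart in RNA from whole tissue.

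Levels of the members also differed between libraries of the same genotype. Across the 10 libraries Ctrl 2 was the lowest for 13 of the 34 genes and Ctrl 1 for 11, while CKO 5 was the highest for 13, CKO 3 for 6 and CKO 2 for 5. These counts also hold the difference between genotypes and have no share over all genes beside them, unlike the counts within a genotype. Among the controls Ctrl 3 was the highest for 21 of 34 genes, beside 30.3% of all tested genes, and Ctrl 2 the lowest for 17 of 34, beside 22.7%. Among CKO libraries CKO 5 was the highest for 15 of 34, beside 25.5%. The median SD of log2 CPM over the members was 0.41 in Ctrl and 0.38 in CKO, against 0.28 in both groups over all tested genes. Ctrl 3 and CKO 5 also had the highest sums of endothelial, fibroblast and macrophage markers in their groups (1905 and 2882 CPM, 3249 and 5505 CPM, and 1635 and 2179 CPM). Other libraries did not follow this order. Ctrl 4 had the lowest control sums of all 3 lists (1193, 1917 and 764 CPM). Its members lay above their control mean (median log2 difference 0.16, against 0.35 in Ctrl 3). CKO 2 had the lowest CKO endothelial sum (2152 CPM), with members at a median of 0.14 above their CKO mean, against 0.27 in CKO 5. The part of these cells in the members' levels was not tested.

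**Figure D3:**
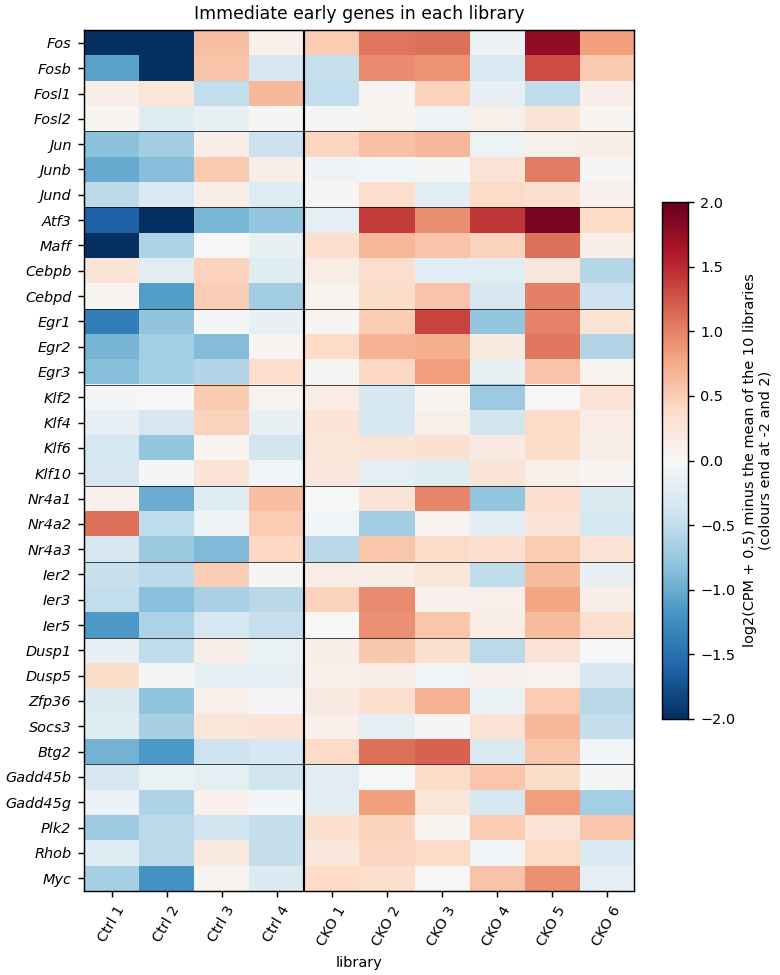
Level of each immediate early gene in each library, as log2(CPM + 0.5) minus the gene's mean over the 10 libraries (red above, blue below; colours end at -2 and 2), with roles separated by thin lines and genotypes by the thick line. Ctrl 1 and Ctrl 2 are blue for most genes, Ctrl 3 is not, and CKO 5 is red for most.

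The comparison was also made within each set of libraries by Xist level, a split chosen with earlier results of these data known. Its values are a description, since Ctrl 1 and Ctrl 2, seen above to be low for Fos, Jun and Btg2, are the 2 controls of the set above 100 CPM, and a call of these genes there restates those levels. Within the 5 libraries with Xist above 100 CPM, 5 members passed the threshold and 0 fell: Fos, Jun, Junb, Egr2 and Btg2, beside 0.613% of all genes higher. Fos was at 1.16 and 2.29 CPM in Ctrl and 22.8, 34.02 and 34.5 CPM in CKO there (log2 fold change 4.14, adjusted p = 0.00704). Jun had a log2 fold change of 1.34 and Btg2 of 2.00 in these libraries. Within the 5 libraries with Xist below 100 CPM, 0 members passed by edgeR, beside 0.0162% of all genes higher, 4 members were higher at an unadjusted p under 0.05 (Atf3, Ier3, Ier5 and Plk2), beside 4.64% of all genes, and 24 of 34 fold changes were above 0, beside 49.4%. There Fos stood at 24.3 and 17.1 CPM in Ctrl and 14.7, 55.3 and 28.4 CPM in CKO, so that the groups overlapped (log2 fold change 0.69). These sets hold 2 Ctrl and 3 CKO libraries each, so each set's calls rest on 5 libraries. None of the 5 genes called over all 10 libraries passed within either set by edgeR: the adjusted p above 100 CPM ranged from 0.0509 (Plk2) to 0.0897 (Ier3), with Atf3 at 0.0543. Plk2 gave log2 fold changes of 0.93 and 0.92 above and below 100 CPM, and Ier3 of 1.22 and 1.02 (adjusted p below 100 CPM of 0.2403 and 0.458).

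The difference of the fold change between the Xist sets was tested with an interaction term, chosen after seeing the data. For 0 of 34 members did it pass after adjustment by edgeR, beside 0.00563% of all genes. At an unadjusted p under 0.05 it passed for 4 members (Fos, Jun, Btg2 and Zfp36), beside 5.13% of all genes. The low values of Ctrl 1 and Ctrl 2 for 3 of these 4 had prompted the test, so this count supports no difference between the sets. With Xist level as a covariate over all 10 libraries the called members were again Atf3, Klf6, Ier3, Ier5 and Plk2, beside 1.98% of all genes higher. The airway transcripts of Ctrl 3 and CKO 4 fall in the set with low Xist, and without these libraries together 7 members passed, the 5 and Jun and Btg2, beside 1.42% of all genes. Xist level and the airway libraries cannot be fully told apart in these 10 libraries.

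**Figure D4:**
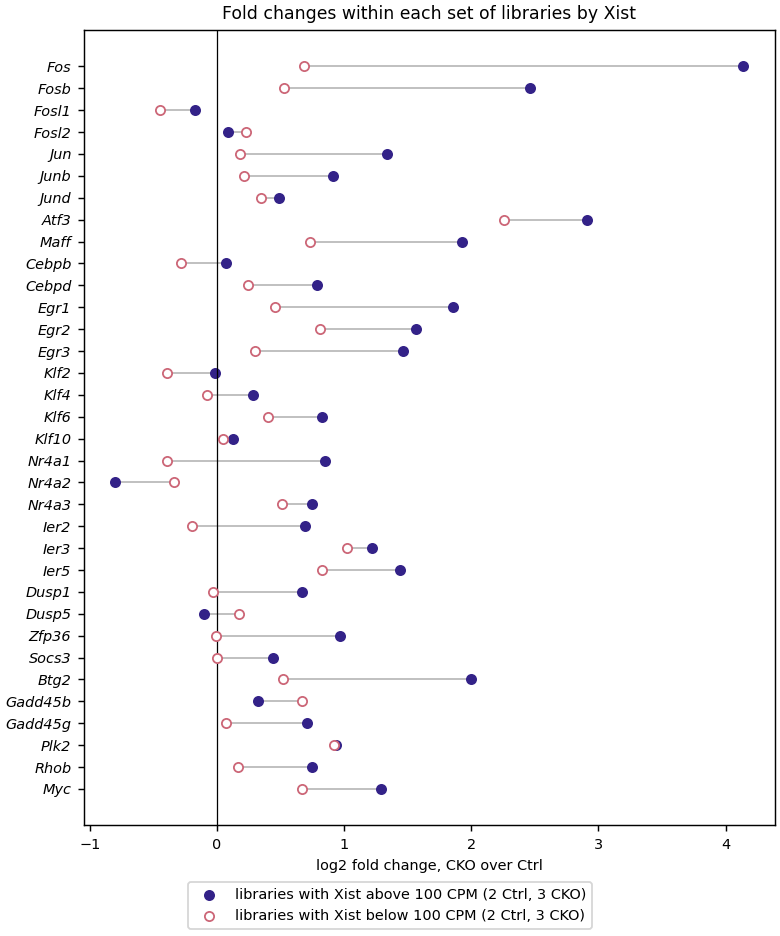
Fold change (log2, CKO over Ctrl) of the 34 genes within the libraries with Xist above 100 CPM (filled) and below 100 CPM (open), 2 Ctrl and 3 CKO libraries each. The 5 widest gaps between the sets are those of Fos, Fosb, Btg2, Egr1 and Nr4a1, and the 3 narrowest those of Plk2, Klf10 and Jund.

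Summed markers of several cell types differed between genotypes, in some lists mainly through 1 gene. The 8 endothelial markers summed to 1193 to 1905 CPM in Ctrl and 2152 to 2882 CPM in CKO, without overlap. Of the 8, 1 (Vwf) rose, with means of 667 CPM in Ctrl and 1368 CPM in CKO, much of the difference in the sum. The other endothelial markers had log2 fold changes of 0.16 to 0.47 and were not called. Ventricular muscle markers summed to 46.4 to 94.0 CPM in Ctrl and 312 to 758 CPM in CKO, and 1 of 3 tested (Myl3) rose. Most of that sum was Myl3, with means of 48.3 CPM in Ctrl and 493 CPM in CKO. Myl2 was not called by edgeR (log2 fold change 2.87, adjusted p = 0.180), and Hey2 had a log2 fold change of -0.29. Fibroblast markers summed to 1917 to 3249 CPM in Ctrl and 3086 to 5505 CPM in CKO, with overlap and with 1 of 6 (Postn) higher. Postn had a log2 fold change of 2.00, while Pdgfra, the only one below 0, had -0.11. Macrophage markers summed to 764 to 1635 CPM in Ctrl and 1076 to 2179 CPM in CKO, also with overlap and with 1 of 6 (Cd68) higher. Neutrophil markers summed to 6.02 to 9.75 CPM in Ctrl and 6.22 to 12.8 CPM in CKO, with Ly6g at 0 in every library. Neuron and Schwann cell markers were lower in CKO without overlap (summed 41.4 to 90.5 CPM in Ctrl and 21.7 to 39.8 CPM in CKO), and 1 of 6 tested fell, Dbh, the enzyme that makes noradrenaline (log2 fold change -2.001, adjusted p = 0.00619). Fat cell markers summed to 368 to 1098 CPM in Ctrl and 129 to 920.2 CPM in CKO, with 0 of 5 called by edgeR at the adjusted threshold and a median log2 fold change of -0.93. Of the 9 cardiomyocyte markers 2 fell, the atrial genes Myl7 (-2.61) and Sln (-0.96), and 1 rose, Tnnt2 (0.73). The part of these cell types in the members' fold changes was not tested.

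Other genes of the pathway were described in 4 lists, over which 3 genes rose and 3 fell. The number that rose was 0 without Ctrl 1 or without Ctrl 2 and 1 without Ctrl 4, and the number that fell was 1 without Ctrl 4. Among 58 tested other early response genes, 3 rose and 2 fell, beside 1.54% and 1.26% of all genes, and the median log2 fold change was 0.09. Hbegf, the heparin-binding ligand of the epidermal growth factor receptor, rose from 9.53 ± 1.82 CPM (SD, n = 4) to 23.1 ± 7.86 CPM (SD, n = 6), with a log2 fold change of 1.28 (SE 0.25, adjusted p = 0.0209). Ereg, another ligand of that receptor, was scarce and rose from 0.548 ± 0.244 CPM to 3.02 ± 1.78 CPM, with a log2 fold change of 2.44 (SE 0.47) and the same adjusted p. The third to rise was Cyr61, a matrix protein induced by stretch, which is named here outside the rule (log2 fold change 1.86, SE 0.41, adjusted p = 0.0358). Rgs2, which shortens signalling by G proteins, fell from 96.9 ± 14.5 CPM to 45.0 ± 13.6 CPM (log2 fold change -1.11, SE 0.20). Homer1, a scaffold of calcium signalling with an activity-induced short form, fell from 155 ± 18.1 CPM to 86.1 ± 18.7 CPM, a log2 fold change of -0.85 (SE 0.15). Both falls had an adjusted p of 0.0155.

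Upstream of the members, 0 of 35 tested kinase cascade genes rose and 1 fell, beside 1.54% and 1.26% of all genes, with a median of 0.02. The 1 that fell was Mapk10, the JNK form of brain and heart, from 112 ± 4.07 CPM (SD, n = 4) to 43.9 ± 7.73 CPM (SD, n = 6), a log2 fold change of -1.35 (SE 0.13, adjusted p = 0.000554). Of 26 tested factors that act at early response promoters, 0 passed in either direction by edgeR, with 2 higher (Creb5 and Atf4) and 4 lower (Ep300, Crtc1, Crtc2 and Mef2a) at an unadjusted p under 0.05, beside 8.86% and 8.14% of all genes. Stat3, the factor downstream of interleukin 6 type cytokines, averaged 208 ± 27.5 CPM over Ctrl libraries and 215 ± 13.5 CPM over CKO libraries. Mef2a, a muscle factor that binds early promoters, stood at 172 ± 7.70 CPM and 135 ± 23.0 CPM (log2 fold change -0.35, SE 0.13, adjusted p = 0.207). Of 18 tested genes of transcript decay and translation control, 0 passed by edgeR, with 0 higher and 2 lower (Cnot3 and Tob1) at an unadjusted p under 0.05, beside the same shares, and a median of -0.11. Cnot1, the scaffold of the deadenylase that Btg2 and Zfp36 recruit, stood at 225 ± 17.1 CPM and 224 ± 21.3 CPM (log2 fold change -0.0049, SE 0.10).

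In the left atrial appendage, whose libraries come from an earlier study, more of the list was called. The authors' deposited table holds 32 of the 34 genes, without Fosl1 and Nr4a2. In that table's appendage comparison of CKO with Ctrl, 20 of 32 were higher and 0 lower at a false discovery rate under 0.05, beside 16.8% and 17.9% of its 13646 genes. In its comparison around the pulmonary veins, which uses the libraries described above, 9 were higher and 0 lower, beside 3.03% and 2.47%. Those 9 in the authors' deposited table were Ier5, Egr2, Plk2, Ier3, Atf3, Btg2, Maff, Jun and Klf6, and all 9 were among the appendage's 20, so that the shared genes are the whole of the smaller list and 45.0% of the larger. Over all genes of the authors' deposited table, 86.4% of those higher around the veins were also higher in the appendage, and 15.6% of those higher in the appendage were also higher around the veins. Both log2 fold changes of the authors' deposited table were above 0 for 28 of 32 members, against 35.6% of its genes. The table states neither its filter and model nor which genotype is the numerator. Its values are read here as CKO over Ctrl in both regions, because those around the veins had the sign found here for 31 of 32 members and 97.1% of 13628 shared genes.

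The appendage values of the authors' deposited table were larger for 27 of 32 members, beside 52.0% of its genes, with a median log2 fold change of 0.76 against 0.47 around the veins, a difference that was not tested. Egr2 had a log2 fold change of 3.51 in the appendage and 1.13 around the veins in the authors' deposited table, and Egr3 of 2.21 and 0.78. Atf3 was high in both, with 3.01 and 2.45 in the authors' deposited table. In the same authors' deposited table, Ier5 had 2.29 and 1.08, Btg2 2.03 and 1.24, and Myc 2.12 and 0.89. Of the 20 members higher in the appendage by the authors' deposited table, 11 were not called around the veins, beside 84.4% of all its genes higher in the appendage. Gadd45g was among the 11 in the authors' deposited table (1.48, false discovery rate 7.58e-05, against 0.34 and 0.685 around the veins). For Fos, Fosb, Junb, Maff and Klf2 the authors' deposited table gave the higher value around the veins. Fos stood at 1.04 in the appendage and 1.47 around the veins in the authors' deposited table, and was called in neither. Region and study cannot be told apart in these values.

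**Figure D5:**
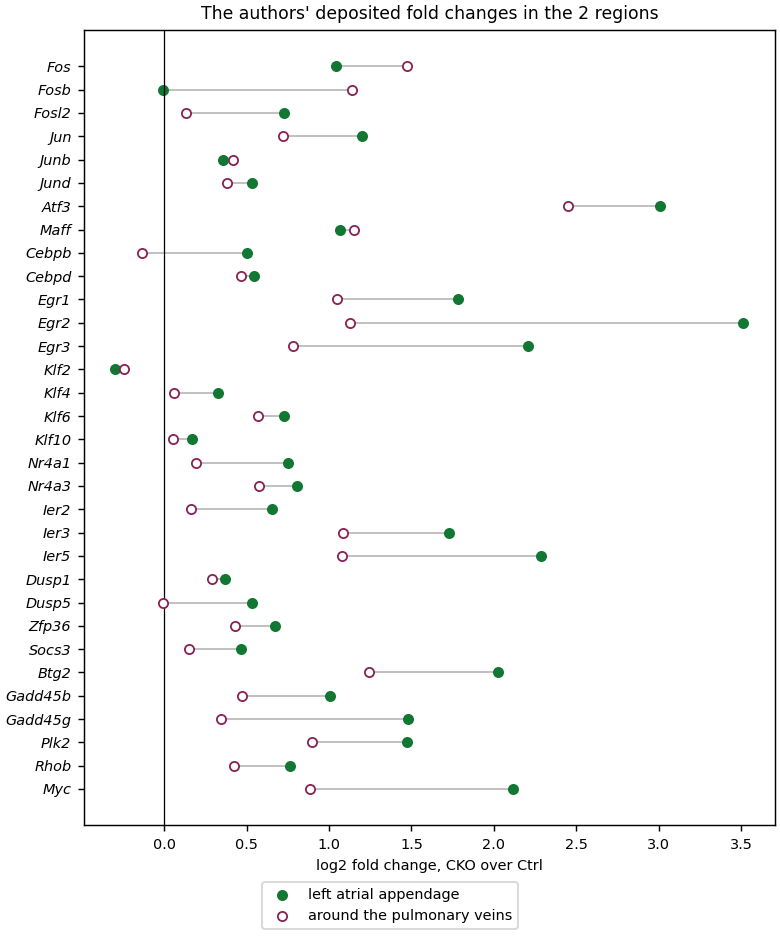
The authors' deposited log2 fold changes (CKO over Ctrl) for the 32 immediate early genes in their table, in the left atrial appendage (filled) and around the pulmonary veins (open). The appendage value is larger for 27 of 32 genes, with the widest gap for Egr2 (3.51 against 1.13).

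The authors' deposited table also compares the region around the veins with the appendage, without stating which genotypes entered or which region is the numerator. It was read as veins over appendage from the values of the airway lining genes Scgb1a1 (13.82), Cyp2f2 (12.85) and Bpifa1 (15.18), all 3 above 0 in the authors' deposited table, so the direction is inferred. Read so, 3 members were higher around the veins, beside 8.19% of the table's genes, and 1 was lower, beside 4.06%. The authors' deposited table gave log2 differences of 1.39 for Myc (false discovery rate 0.0176), 0.93 for Gadd45g (0.00826) and 0.60 for Klf4 (0.0304). Plk2, which rose in CKO in both regions, was lower around the veins by the authors' deposited table (log2 difference -0.92, false discovery rate 0.000191). The median over the 32 members was 0.14 and over the table's genes 0.0017, and again region and study cannot be told apart.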

How the data were processed

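RNA from 10 libraries (4 Ctrl, 6 CKO) was analysed. Per the submitters' processing notes, reads were aligned to mm10 with TopHat2 2.1.1 and assigned to transcripts with StringTie 1.3.3, and the authors' tests used R 3.4.0 with the packages limma 3.32.10 and edgeR 3.18.1. Per the labels ribosomal RNA was removed, although polyA RNA is given as the molecule. The deposited gene table holds expected counts, which for all 54532 genes of each library equal the transcripts' coverage multiplied by their length, divided by 50 bases per read and summed. The deposited transcript files give coverage and TPM per the file headers. The authors' deposited table gives log2 fold changes, p-values and false discovery rates. Another 10 columns of the gene table (appendage) were not used.

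Counts, rounded, were filtered with filterByExpr (17752 of the 33196 genes above 0 remained), TMM-scaled and compared in edgeR 4.0.16 in R 4.3.3 (quasi-likelihood F test, genotype only, Benjamini-Hochberg over all tested genes, threshold 0.05). CPM use TMM-scaled library sizes, and TPM compare genes per length. SEs were obtained from each fold change and its F statistic. In simulated data with 200 of 17752 genes changed, 8.96% of 1.5-fold, 53.7% of 2-fold and 93.9% of 4-fold changes were found, and 6 of 110 calls were false. Alternatives were DESeq2 1.42.0, limma 3.58.1 (voom, and log2(TPM + 0.5)), other scalings and filters, the replicate block, Xist level and left-out libraries. Replicate numbers did not pair the libraries. The design text counts 4 controls and 6 mutants, so each library was taken as 1 mouse. The members, gene lists and motifs were chosen with earlier results of these data known. For members called here or by the authors, each Ctrl value and the CKO range and median are printed. The same holds for the most abundant member of each role. From each pathway list up to 4 called genes by adjusted p are named, or the 2 most abundant where none was called.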

Additional observations from a re-analysis of the deposited data

Results flagged for a closer look

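In 4 of the 68 groups of values screened (34 genes in each genotype) 1 library stood apart from the rest of its group, where chance gives about 1 in 20. Junb in CKO 5 was at 58.9 CPM, against 27.1 to 34.9 CPM in the other CKO libraries. Egr3 in Ctrl 4 was at 4.10 CPM, against 1.48 to 1.89 CPM in the other controls. Klf2 in Ctrl 3 was at 45.0 CPM, against 30.9 to 32.7 CPM. Nr4a3 in CKO 1 was the one value below the rest, at 15.3 CPM against 27.9 to 33.7 CPM.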

How the results depend on the processing

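Of 748 fold changes recomputed (34 genes under 22 alternatives), 677 kept their direction and side of the threshold, 32 lost a call, 12 gained one and 27 changed sign. The count of members higher in CKO, 5 in the main test, was 8 with DESeq2 (Jun, Egr2 and Btg2 added), 0 in the libraries with Xist below 100 CPM and 1 to 6 when 1 library was left out (1 without Ctrl 2, 6 without Ctrl 3). Klf6 was lost with library size scaling, no filter or TPM values. The count of pathway list genes higher, 3 in the main test, was 8 with DESeq2 and 0 to 4 when 1 library was left out, and that of genes lower, also 3, was 1 to 4. With the replicate number as a block (replicate block) 0 members and 0 pathway list genes were higher and 37 genes of all were called. Same-numbered libraries did not deviate together (correlations 0.0313, 0.0876, -0.319 and 0.0894), and no Ctrl library correlated best with its own number.

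Signs changed for genes that no alternative called. Dusp5 was -0.050 with library size scaling, -0.12 with TPM, -0.10 above 100 CPM of Xist, -0.057 without Ctrl 3 and CKO 4, and -0.048 to 0.16 with 1 library left out. Klf4 was -0.052 with TPM, -0.036 with the replicate block, -0.076 below 100 CPM of Xist and -0.0072 to 0.29 with 1 library left out. Klf10 was -0.10 with TPM and -0.021 to 0.19 with 1 library left out. Cebpb was 0.069 above 100 CPM of Xist, 0.085 without Ctrl 3 and CKO 4, and -0.22 to 0.042 with 1 library left out, and Klf2 was 0.042 without Ctrl 3 and CKO 4. Below 100 CPM of Xist, Nr4a1 was -0.39, Ier2 -0.19, Dusp1 -0.029, Zfp36 -0.0071 and Socs3 -0.00015, and Nr4a1 was -0.013 to 0.52 with 1 library left out. The cause of these changes was not tested. TPM values moved the median of all genes to -0.16, and 27 of 34 members then lay above 0. Fosl1, Nr4a2 and Egr3, at 1.54 to 1.81 TPM over all libraries, rest on few reads, and changes of 1.5-fold were rarely found in simulated data.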

Other observations

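Transcript models of some members gave different shares in the 2 genotypes. These genes were chosen after their values were seen, and no test was made. For Zfp36, the share of the gene's TPM on the longer of 2 coding models (ENSMUST00000051241, 319 codons) was 1.83% to 34.8% in Ctrl and 33.0% to 55.4% in CKO. Its level was 6.55, 0.244, 0.544 and 0.645 TPM in Ctrl 1 to 4 and 6.49 to 18.9 TPM in CKO. The other coding model stood at 12.3 to 24.7 TPM in Ctrl and 8.09 to 15.9 TPM in CKO, where the groups overlapped.

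For Maff, 1 coding model (ENSMUST00000163691) was listed at 0 in all 4 Ctrl libraries and at 0.0889 to 16.4 TPM in CKO, with the 3 highest values in CKO 2, 3 and 4. For Plk2, a retained-intron model (ENSMUST00000225156) was at 0 to 0.327 TPM in Ctrl and 0.326 to 8.43 TPM in CKO, while the full coding model stood at 16.1 to 21.2 TPM in Ctrl and 22.5 to 39.1 TPM in CKO. For Fos, the coding model was nearly absent in Ctrl 1 and Ctrl 2 (0.0801 and 0.0389 TPM) and at 19.95 and 13.6 TPM in Ctrl 3 and Ctrl 4, against 9.97 to 35.8 TPM in CKO. Most Dusp1 coverage was assigned to 2 retained-intron models, with at most 28.9% on the coding model in Ctrl and 26.3% in CKO.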
